A study of Mus musculus with 35 samples.

Results

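The genes described here make, break down, bind or cross-link hyaluronan in the wound matrix: the hyaluronan synthases Has1, Has2 and Has3, the hyaluronidases Hyal1 and Hyal2, the receptor Cd44, the proteoglycan versican (Vcan) and the hyaluronan-modifying protein TSG-6 (Tnfaip6). They were chosen by name for this role, and all 8 were found among the 22830 gene symbols of both deposited count tables. The study's methods give punch biopsies from the center of the skin wound or scar as the tissue for RNA-seq. Levels are therefore those of the wound center and not of the whole wound. The mice were male and female, aged 8 to 12 weeks, with a full-thickness excision on the back. Col5a1CKO animals carried Col1a2CreERT and 2 floxed alleles of Col5a1, which encodes the alpha chain common to type V collagens, and WT animals were their Cre-negative Col5a1 fl/fl littermates. Tamoxifen was given around the time of wounding, so the deletion was induced in cells in which the Col1a2 enhancer is active, mainly fibroblasts, and other cells of the wound kept the gene. At day 14 there were 7 WT wounds, 7 Col5a1CKO wounds and 3 Col5a1CKO wounds injected with cultured WT skin fibroblasts. The day 19 groups held 3 wounds of each genotype. In a separate experiment, 4 WT wounds with vehicle, 4 Col5a1CKO wounds with vehicle and 4 Col5a1CKO wounds with cilengitide, a cyclic peptide inhibitor of the integrin αvβ3, were also taken at day 14.

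Hyaluronan is a long unbranched sugar polymer that swells with water and fills the early wound. It is made at the plasma membrane by the HAS enzymes, which draw on activated sugars in the cytoplasm and push the growing chain out of the cell. Fibroblasts are known for HAS2 and HAS1, whereas HAS3 is prominent in the epidermis. HYAL2 and HYAL1 act in sequence, the first at the cell surface and the second in lysosomes. CD44 is the main cell surface receptor and is carried by fibroblasts, leukocytes and keratinocytes. Versican ties the polymer into a provisional matrix, and TSG-6 transfers heavy chains of inter-alpha-inhibitor onto it, which makes it more adhesive for leukocytes.

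The libraries held 15043531 to 35700337 counts per wound in the fibroblast and time-course table and 51211600 to 68266760 in the cilengitide table. The targeted gene Col5a1 ranged from 41.2 to 284 reads per kilobase and library size (RPKM) in WT and from 20.2 to 79.0 in Col5a1CKO wounds at day 14, and its difference did not pass the test (log2 fold change -1.43 ± 0.49 SE, edgeR adjusted p = 0.0757). The day 14 libraries fell into 2 sets by how strongly genes of high and low GC content were represented, and this split was not part of the study's labels. The lower set held replicates a to d of WT and a to e of Col5a1CKO, and the upper set all other libraries of that table. Defining markers of keratinocytes, fibroblasts, leukocytes and endothelium were above 0 in every library. The summed counts scaled to library size (CPM) of 8 keratinocyte markers ran from 38724 to 166396 in WT wounds at day 14 and from 41.7 to 66120 in Col5a1CKO wounds, and those of 8 leukocyte markers 1725 to 11661 and 3316 to 22563. In whole tissue, fewer cells of a type and less RNA per cell cannot be told apart. The labels do not say that each library is a different animal, but the study's methods describe each n as a separate biological replicate. The p-values measure the spread between these libraries. The study's text describes day 14 WT and Col5a1CKO wounds of the fibroblast experiment as given vehicle, the labels do not, and which wounds were injected is not known here. The treatment field of the day 19 Col5a1CKO libraries names fibroblasts while their titles do not, and the titles were followed.

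Per kilobase of transcript, Cd44 had the highest mean level of the 8 genes in all 5 groups of the time-course table, from 64.4 ± 3.2 RPKM (SD, n = 3) in WT at day 19 to 130 ± 42 (n = 3) in Col5a1CKO wounds with WT fibroblasts. Vcan, Tnfaip6 and Hyal2 came next, with group means between 12.4 and 36.0 RPKM. The 3 synthases and Hyal1 had means of 10.8 RPKM or less. Has1 was the lowest in the 3 day 14 groups, but in Col5a1CKO wounds at day 19 its mean was above those of Has2 and Has3. The values of every wound are shown in the plot by group.

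**Figure D1:**
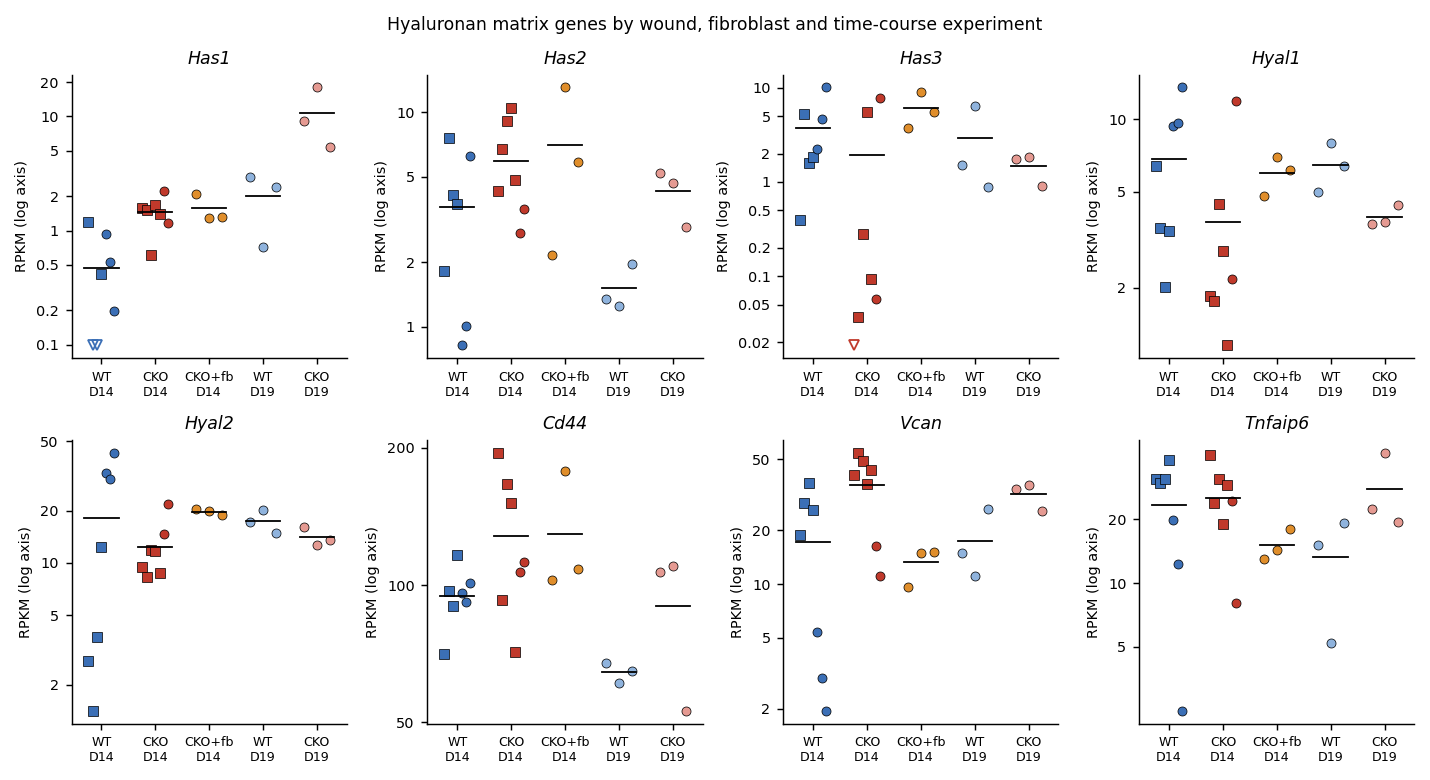
Level of each hyaluronan gene in RPKM (log axis) in every wound of the fibroblast and time-course experiment. Squares are wounds of the lower library set, circles those of the upper set, open triangles wounds with 0 counts and lines the arithmetic mean of a group; Has1 was 5.35 to 17.9 in Col5a1CKO wounds at day 19, above every other wound.

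With edgeR's quasi-likelihood test, a gene was called when it differed at least 2-fold with an adjusted p under 0.05. Between Col5a1CKO and WT wounds with vehicle in the cilengitide experiment, 5 of the 8 genes rose and none fell: Has1, Has2, Cd44, Vcan and Tnfaip6. Of 15434 genes tested there, 17.5% were called higher and 13.4% lower. The median log2 fold change of the 8 genes was 1.53 and that of all genes 0.02. In the same wounds 7 of 8 leukocyte and 3 of 8 fibroblast markers were called higher and 4 of 8 keratinocyte markers lower, with keratinocyte sums of 69.2 to 14630 CPM in Col5a1CKO against 66693 to 105149 in WT wounds, and their part in these results was not tested. At day 14 in the first experiment none of the 8 was called in the same genotype comparison, where 5.57% of 14367 genes were called higher and 2.71% lower. DESeq2 gave 0 as well, as did an unadjusted p under 0.05 with at least 2-fold. With library set as covariate Vcan was called higher (1.17, edgeR adjusted p = 0.0101), where 1299 of 14367 genes were called higher and 558 lower. With the replicate letter as a block Vcan was also called higher (1.56, 0.0387), where 757 genes were called higher and 567 lower. Without covariate or block the median of the 8 was 0.27 against -0.03 for all genes. At day 19 none was called either, with 0.0198% of 15135 genes called higher and 0% lower, although the median of the 8 was 0.73 against -0.01. DESeq2 gave 2 there, Has1 and Has2, as did an unadjusted p under 0.05 with at least 2-fold, and Hyal1 also had an unadjusted edgeR p under 0.05 with a smaller change. Over all genes, DESeq2 called 708 of 18957 higher and 782 lower. The unadjusted threshold was passed by 815 of 15135 genes higher and 943 lower. The fold changes of all comparisons are drawn in the plot of log2 fold changes.

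With treated set against vehicle-treated Col5a1CKO wounds, 1 of the 8 genes was called, Tnfaip6, which was lower with cilengitide, with 6.48% of 15563 genes called higher and 6.59% lower. Between treated Col5a1CKO wounds and WT wounds with vehicle 1 was called, Has2, which was higher with cilengitide, with 5.15% of 15514 genes called higher and 3.43% lower. These comparisons and the one between genotypes share the vehicle wounds. With WT fibroblasts none of the 8 was called against Col5a1CKO wounds without them. There 0% of 15659 genes were called higher and 0% lower by edgeR, with 37 higher and 854 lower at an unadjusted p under 0.05 and at least 2-fold, and 9 and 10 called by DESeq2. Among the 8 genes Vcan passed that unadjusted threshold, Hyal2 had an unadjusted edgeR p under 0.05 with a smaller change, and DESeq2 called none. Against WT, wounds with fibroblasts had none of the 8 called, with backgrounds of 3.77% higher and 2.06% lower. DESeq2 called 0 and the unadjusted p with at least 2-fold gave 0, while 1 was called with library set as covariate and 2 within the upper set, Vcan in both and Has1 in the second. With the covariate 1535 of 15316 genes were called higher and 1021 lower. Within the upper set 2999 of 15132 were called higher and 1691 lower. From day 14 to day 19, WT wounds had none called, at 1.5% higher and 4.25% lower. DESeq2 and the unadjusted p gave 0, while Vcan was called higher with library set as covariate and within the upper set. The covariate fit called 830 of 15180 genes higher and 1130 lower, and the upper set alone 2133 of 15059 higher and 1521 lower. Col5a1CKO wounds had 1 called, Has1, which was higher, at 1.87% higher and 3.85% lower. The day 14 groups enter several of these comparisons.

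**Figure D2:**
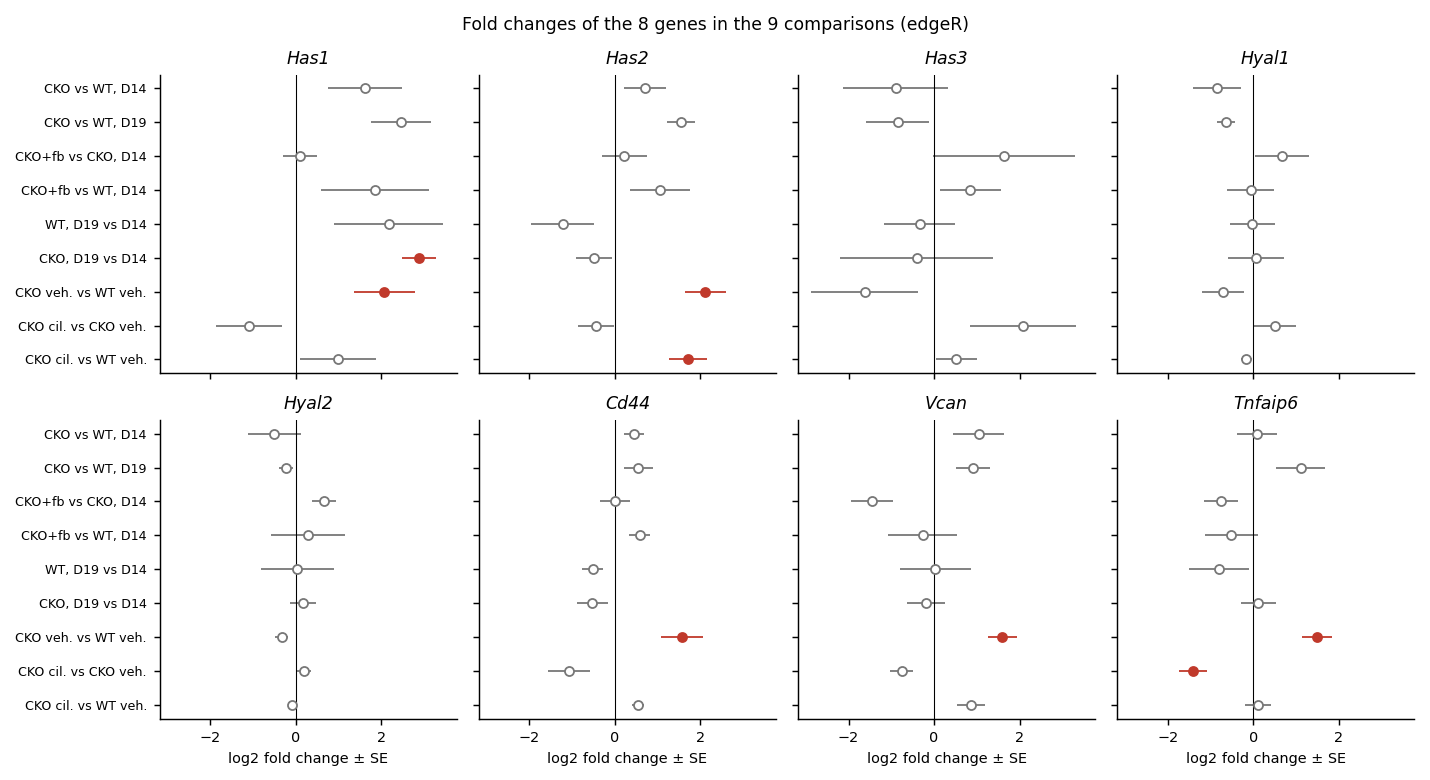
Log2 fold change of each hyaluronan gene in the 9 comparisons (x axis), with bars for 1 SE. Filled red points were called and grey open points were not; the filled points are those of 5 genes for Col5a1CKO against WT with vehicle, Tnfaip6 for cilengitide, Has2 for cilengitide against WT and Has1 for day 19 against day 14 in Col5a1CKO.

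Has1 (chr17:17980292-17992152, minus strand, NCBI37/mm9) encodes the least active of the synthases and was scarce in WT wounds. At day 14 its level ranged from 0 to 1.2 RPKM with a median of 0.417 in WT and from 0.607 to 2.2 with a median of 1.5 in Col5a1CKO wounds. WT replicates b and c had 0 counts, which allows up to 0.0986 and 0.104 RPKM (3 counts, counting error only). The groups overlapped, and the log2 fold change of 1.62 ± 0.87 SE had an edgeR adjusted p of 0.241. At day 19 the WT wounds had 2.97, 0.716 and 2.4 RPKM and the Col5a1CKO wounds 9.07, 17.9 and 5.35. Every mutant wound was above every WT wound, a mean 5.49-fold higher on the fitted scale, but this did not pass the edgeR adjustment (2.46 ± 0.70 SE, adjusted p = 0.141), while DESeq2 gave an adjusted p of 0.00638. Between days 14 and 19 Has1 rose 7.35-fold in Col5a1CKO wounds (2.88 ± 0.40 SE, edgeR adjusted p = 0.0080) with no overlap. All 3 day 19 wounds are of the upper library set. Within that set, with 2 Col5a1CKO wounds at day 14, the change was 2.72 with an adjusted p of 0.126, and over all wounds with library set as covariate it was 2.66 with 0.0575. The call was also lost without Col5a1CKO day 19 replicate a (0.0591) or b (0.0787). In the same comparison the endothelial markers Cdh5 and Vwf and the fibroblast marker Col1a1 were called higher, with summed fibroblast markers of 32048 to 128943 CPM at day 14 and 112363 to 152644 at day 19, and their part in the result was not tested.

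In the cilengitide experiment Has1 had 0.941, 0.107, 1.27 and 0.697 CPM in WT wounds with vehicle and 1.38, 4.61, 4.5 and 2.24 in Col5a1CKO wounds with vehicle. These groups did not overlap, and the rise was 4.20-fold (2.07 ± 0.72 SE, edgeR adjusted p = 0.0441). The call was lost without WT replicate 1, 3 or 4 or Col5a1CKO replicate 2 or 3, with an adjusted p of up to 0.102. It was also lost by library size only (0.0504), with all genes of at least 1 count (0.0504) and with all groups in one fit (0.0533). With cilengitide the values were 0.516, 1.44, 3.72 and 0.329 CPM, which overlapped both vehicle groups.

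Has2 (chr15:56497182-56526094, minus strand) encodes the synthase of most very long hyaluronan in mesenchymal cells. Its gene span, introns included, overlaps that of the antisense gene Has2as by 4596 bp, and the overlap of exons was not computed. The library kit keeps the strand of the RNA, but the strand setting of the counting is not given in the sources used here, so reads of the antisense gene could be included. At day 14 Has2 ranged from 0.82 to 7.58 RPKM with a median of 3.73 in WT and from 2.73 to 10.4 with a median of 4.84 in Col5a1CKO wounds. The groups overlapped (0.71 ± 0.49 SE, edgeR adjusted p = 0.367). At day 19 WT wounds had 1.35, 1.26 and 1.97 RPKM and Col5a1CKO wounds 5.21, 4.7 and 2.92, again without overlap. The log2 fold change was 1.55 ± 0.34 SE with an edgeR adjusted p of 0.116, and DESeq2 gave 0.00124. The edgeR value was 0.0465 when WT replicate c was left out.

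The clearest synthase difference was that of Has2 with vehicle. WT wounds had 7.4, 10.9, 5.45 and 2.91 CPM, and Col5a1CKO wounds had 38.5, 24.7, 13.5 and 40.8. Every mutant wound was above every WT wound, a rise of 4.35-fold (2.12 ± 0.48 SE, edgeR adjusted p = 0.00889), and the call held with each of the 8 wounds left out in turn. With cilengitide Has2 had 11.7, 17.7, 33.4 and 24.3 CPM. These values lay within the range of the mutant wounds with vehicle except for the lowest (-0.45 ± 0.42 SE, adjusted p = 0.455). They were all above the WT wounds, with a 3.28-fold difference (1.71 ± 0.44 SE, edgeR adjusted p = 0.0348). That call was lost without WT replicate 1, 3 or 4 or cilengitide replicate 2, 3 or 4, with an adjusted p of up to 0.0884. All values of this experiment are shown in the plot of CPM by treatment.

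**Figure D3:**
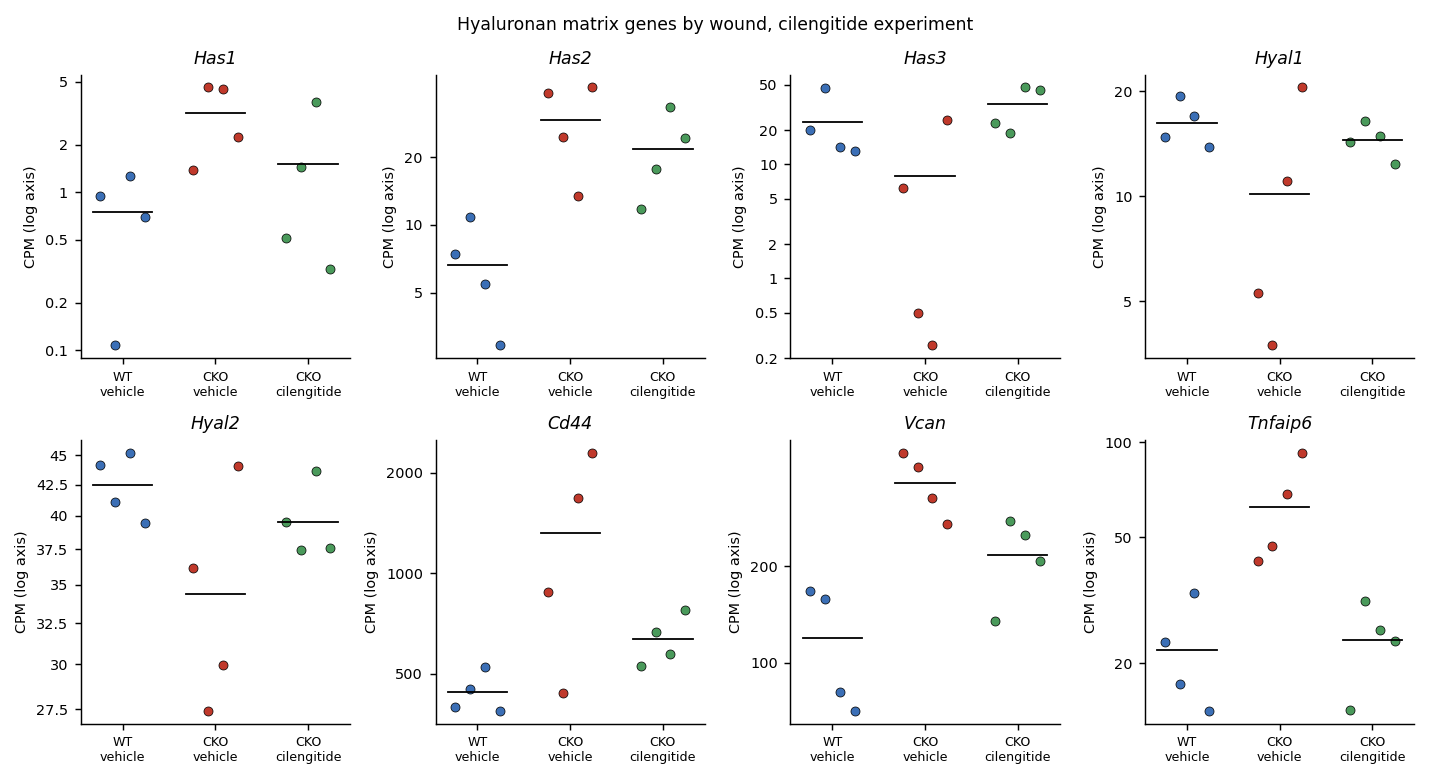
Level of each hyaluronan gene in CPM (log axis) in the 4 wounds of each group of the cilengitide experiment, with lines for the arithmetic mean. Has1, Has2, Vcan and Tnfaip6 had no overlap between WT and Col5a1CKO wounds with vehicle, and Tnfaip6 had none between vehicle and cilengitide in Col5a1CKO wounds.

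Has3 (chr8:109394142-109406802, plus strand) encodes the third synthase and had the widest spread between mutant wounds. WT wounds at day 14 had 0.392 to 10.1 RPKM with a median of 2.24. Among Col5a1CKO wounds the values of replicates a to g were 0, 0.037, 0.281, 5.46, 0.093, 0.0578 and 7.72 RPKM. Replicates d and g were thus at WT levels and the other 5 were below every WT wound. The count of 0 in replicate a allows up to 0.0291 RPKM. Replicates d and g were also those with the highest summed keratinocyte markers, 32394 and 66120 CPM, against 41.7 to 2248 in the other 5 mutant wounds. The part of these markers in the result was not tested. With this spread the difference in means was not significant (-0.89 ± 1.23 SE, edgeR adjusted p = 0.677). Wounds with WT fibroblasts had 3.74, 9.02 and 5.51 RPKM, within the range of WT (0.85 ± 0.71 SE, adjusted p = 0.545), and their keratinocyte markers summed to 13811 to 32886 CPM.

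The same division was present with vehicle and cilengitide. WT wounds had 20.2, 46.8, 14.3 and 13.2 CPM of Has3, and Col5a1CKO wounds with vehicle 6.19, 0.497, 0.259 and 24.7. The mutant wound at 24.7, replicate 4, lay within the WT range, and it had the highest keratinocyte sum of its group, 14630 CPM against 69.2 to 2037. With cilengitide Has3 was 23.1, 19, 47.4 and 45.4 CPM, and the keratinocyte sums were 37121 to 74264. Neither the genotype difference (-1.62 ± 1.25 SE, edgeR adjusted p = 0.310) nor the difference with cilengitide (2.08 ± 1.24 SE, 0.243) passed the test. Without Col5a1CKO vehicle replicate 4 the difference with cilengitide was 3.86, with an adjusted p of 0.0399.

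Because the synthases are set against each other within a wound, the ratio of Has2 to Has3 does not depend on the size of the library. At day 14 its log2 value was -0.36 ± 1.60 (SD, n = 7) in WT and 4.25 ± 3.72 (n = 7) in Col5a1CKO wounds, which is 4.61 higher (exact permutation test, 2-sided, p = 0.0128, and 0.0476 when adjusted over 5 comparisons). The ranges overlapped, since replicates d and g had values of 0.45 and -1.60. The difference was 4.47 among libraries of the lower set (exact p = 0.0476) and 3.62 among those of the upper set (exact p = 0.2, where the smallest possible is 0.1). With vehicle the ratio was -1.78 ± 0.42 (n = 4) in WT and 3.66 ± 2.41 (n = 4) in Col5a1CKO wounds, with no overlap and a difference of 5.44. The exact permutation p of 0.0286, adjusted 0.0476, is the smallest that 4 wounds against 4 can give. With cilengitide the ratio was -0.62 ± 0.40 (n = 4), a difference of -4.28 from mutant wounds with vehicle, again without overlap and with the same exact p. Each of these exact p-values was 0.0571 when any 1 of the 4 WT wounds, or of the 4 wounds with cilengitide, was left out. At day 14, mutant replicates d and g had keratinocyte marker sums of 32394 and 66120 CPM, against 41.7 to 2248 in the others. With vehicle the sums were 66693 to 105149 CPM in WT and 69.2 to 14630 in Col5a1CKO wounds. They were 37121 to 74264 CPM with cilengitide, and the part of these markers in the ratio was not tested.

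At day 19 the ratio was -0.93 ± 1.76 (n = 3) in WT and 1.07 ± 0.17 (n = 3) in Col5a1CKO wounds. The groups did not overlap, and the exact permutation p of 0.1 is the smallest that 3 against 3 allows. Wounds with WT fibroblasts had -0.53 ± 0.68 (n = 3), a difference of -4.79 from Col5a1CKO wounds (exact p = 0.0917, adjusted 0.1). When Col5a1CKO replicate g was left out this difference was -5.76 with an exact permutation p of 0.0119 over 6 and 3 wounds. Of 10 such runs with a wound left out, only 1 crossed the threshold. All wounds with fibroblasts are of the upper library set. Of the Col5a1CKO wounds only replicates f and g are, with ratios of 5.02 and -1.60, so without g only f of that set remained. The ratio by wound is shown in the plot of synthase ratio and versican exon density.

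**Figure D4:**
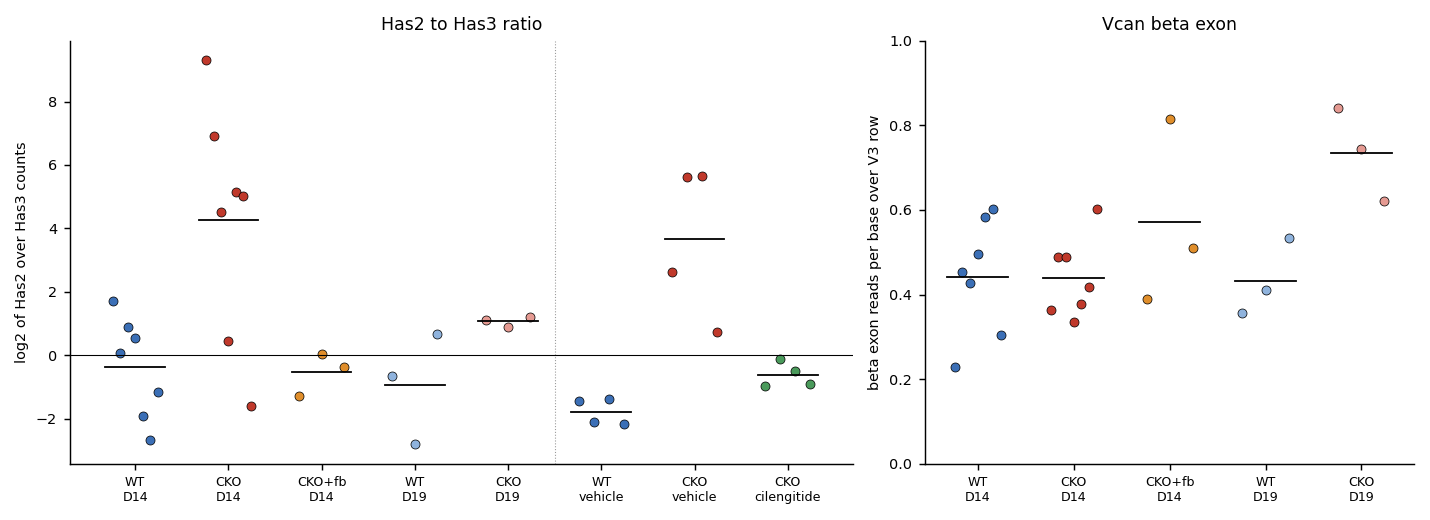
Left, log2 ratio of Has2 to Has3 in every wound of the 8 groups; right, read density on the Vcan beta exon over that on the exons of the V3 row (no unit) in the 5 time-course groups. Col5a1CKO wounds with vehicle lie above all WT and cilengitide wounds in the left panel, and Col5a1CKO wounds at day 19 (0.621 to 0.840) above WT wounds of that day (0.356 to 0.533) in the right.

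The hyaluronidases were not called in any comparison. Hyal1 (chr9:107479258-107485174, plus strand) encodes the lysosomal enzyme. Its gene span overlaps those of Hyal3 and Nat6 on the same strand and of Gm16343 on the other. The overlap of exons was not computed, so its counts may include reads of these genes. At day 14 it ranged from 2.01 to 13.6 RPKM with a median of 6.42 in WT and from 1.15 to 11.9 with a median of 2.17 in Col5a1CKO wounds. Replicate g gave the 11.9 (-0.85 ± 0.55 SE, edgeR adjusted p = 0.340). Without replicate g the log2 fold change was -1.52 with an adjusted p of 0.0434. At day 19 WT wounds had 5.01, 7.96 and 6.37 RPKM and Col5a1CKO wounds 3.67, 3.75 and 4.39, all mutant wounds lower (-0.64 ± 0.21 SE, adjusted p = 0.162). With vehicle WT wounds had 14.8, 19.4, 17 and 13.9 CPM and Col5a1CKO wounds 5.27, 3.73, 11.1 and 20.5. As for Has3, the highest mutant value was that of replicate 4, and without it the log2 fold change was -1.24 with an adjusted p of 0.0322, against -0.71 ± 0.50 SE and 0.265 with it.

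Hyal2 (chr9:107471448-107475107, plus strand), the enzyme anchored at the cell surface, differed between the library sets in WT wounds. WT replicates a to d of the lower set had 2.75, 1.41, 3.74 and 12.3 RPKM at day 14, and replicates e to g of the upper set 32.7, 30.2 and 43. Col5a1CKO wounds had 8.34 to 21.9 RPKM with a median of 11.7. The log2 fold change of -0.50 ± 0.62 SE (edgeR adjusted p = 0.642) became 0.99 within the lower set, so no direction can be given for day 14. At day 19 WT wounds had 17.1, 20 and 14.9 RPKM and Col5a1CKO wounds 16.2, 12.7 and 13.6 (-0.22 ± 0.16 SE, adjusted p = 0.405). With vehicle the WT wounds had 44.1, 41.1, 45.2 and 39.4 CPM and the Col5a1CKO wounds 36.2, 27.4, 30 and 44.1. These overlapped through replicate 4 alone (-0.32 ± 0.15 SE, adjusted p = 0.115). With cilengitide Hyal2 was 39.6, 37.5, 43.7 and 37.6 CPM, inside the range of the mutant wounds with vehicle.

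Of the comparisons between genotypes, groups without overlap were found for 3 of 8 genes higher and 1 lower at day 19 (Has1, Has2 and Tnfaip6, and Hyal1), where 16.4% of all genes were higher and 18.4% lower without overlap. With vehicle they were found for 4 of 8 higher and none lower (Has1, Has2, Vcan and Tnfaip6), against 23.4% and 26.1% of all genes.

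Cd44 (chr2:102651298-102741822, minus strand) encodes the hyaluronan receptor, a transmembrane protein whose extracellular stem can be lengthened by a run of variable exons. The deposited table gave 6 RefSeq transcripts of this gene that differ in these exons, so the reads on each exon or pair of exons could be obtained as the difference between transcripts. The longest, NM_009851, has 10 variable exons and 5652 bp, and the shortest, NM_001039151, has none of them and 4407 bp. A known feature of the family is that heparan sulfate is attached to Ser-Gly pairs of the stem. The variable exons were therefore searched in the reading frame of the annotation for a serine codon (TCN, AGT or AGC) followed by a glycine codon (GGN), on the coding strand only. Exon 3 held 2 pairs, exon 10 held 1 and the other 8 held none. The exons with pairs are printed with exon 8, which had the highest read density in WT wounds. Sequences are from the NCBI37 genome, minus strand, 5′ to 3′, with Ser-Gly codons in capitals, for chr2:102685442-102685567, chr2:102674391-102674492 and chr2:102671487-102671693.
Cd44 variable exon 3: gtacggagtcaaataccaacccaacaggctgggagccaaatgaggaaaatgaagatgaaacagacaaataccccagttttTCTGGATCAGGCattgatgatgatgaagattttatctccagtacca
Cd44 variable exon 8: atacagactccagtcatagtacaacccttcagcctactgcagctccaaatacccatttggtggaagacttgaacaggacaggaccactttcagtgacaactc
Cd44 variable exon 10: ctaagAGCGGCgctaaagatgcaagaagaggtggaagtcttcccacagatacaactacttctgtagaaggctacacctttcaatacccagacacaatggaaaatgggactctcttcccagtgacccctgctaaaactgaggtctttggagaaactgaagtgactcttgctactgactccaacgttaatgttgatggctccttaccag

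Total Cd44 ranged from 70.6 to 116 RPKM with a median of 96.0 in WT and from 71.5 to 195 with a median of 112 in Col5a1CKO wounds at day 14. The groups overlapped (0.44 ± 0.23 SE, edgeR adjusted p = 0.231). At day 19 WT wounds had 67.4, 61.0 and 64.8 RPKM, all below the day 14 WT wounds (-0.52 ± 0.25 SE, adjusted p = 0.237), and Col5a1CKO wounds had 107, 110 and 53.0. Wounds with fibroblasts had 103, 178 and 108 RPKM, with a difference from Col5a1CKO wounds without them of 0.01 ± 0.34 SE.

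With vehicle Cd44 was 398, 450, 523 and 387 CPM in WT wounds. It was 878, 437, 1679 and 2299 CPM in Col5a1CKO wounds. The rise was 2.96-fold (1.57 ± 0.49 SE, edgeR adjusted p = 0.0304), although mutant replicate 2 lay within the WT range. The call was lost without any 1 of the 4 WT wounds or without Col5a1CKO replicate 3, with an adjusted p of up to 0.0758. The mutant wounds with the highest Cd44, replicates 3 and 4, also had the highest summed leukocyte markers, 26699 and 47945 CPM against 4949 and 6776 in the other two and 388 to 2835 in WT, and 7 of 8 leukocyte markers were called higher in this comparison. The part of these markers in the result was not tested. With cilengitide Cd44 was 529, 668, 575 and 777 CPM, above every WT wound but with a difference under 2-fold (0.54 ± 0.15 SE, adjusted p = 0.0383), and within the range of mutant wounds with vehicle (-1.07 ± 0.49 SE, 0.136).

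The share of Cd44 reads on variable exons separated the mutant wounds in the same way as Has3. It was 5.58% to 23.1% with a median of 11.8% in WT wounds at day 14. In Col5a1CKO replicates a to g it was 1.71%, 0.849%, 3.54%, 11.3%, 1.13%, 1.07% and 16.03%. Replicates d and g were again within the WT range, and the other 5 were below every WT wound. The 95% Wilson interval of the lowest, replicate b, was 0.712% to 1.01%, and that of the highest WT wound 22.4% to 23.8%. The log2 ratio of the longest to the shortest transcript was 0.21 ± 0.11 (SD, n = 7) in WT and 0.08 ± 0.10 (n = 7) in Col5a1CKO wounds (exact permutation test, 2-sided, p = 0.0390). Adjusted over the 9 transcript comparisons this p was 0.3. As reads on the extra exons over those of the shorter transcript, a measure added after the values were seen, the difference was -2.23 on the log2 scale (exact p = 0.0169, adjusted 0.152).

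At day 19 the variable share was 8.10%, 15.6% and 5.17% in WT and 6.33%, 3.26% and 4.88% in Col5a1CKO wounds, which overlapped (exact permutation p = 0.2). Wounds with WT fibroblasts had 5.88%, 11.1% and 8.24% (exact permutation p = 0.442 against Col5a1CKO wounds without them). Relative to the shortest transcript, the median read density per base in WT wounds at day 14 was highest on exon 8, at 116%. It was 64.5% on exons 9 and 10, 46.5% on exons 6 and 7, 53.3% on exons 4 and 5 and 25.4% on exons 1 to 3. In Col5a1CKO wounds the medians were 11.2%, 11.5%, 9.86%, 4.04% and 2.99% in the same order. The exons near the membrane end of the stem, which epithelial forms of Cd44 are known to carry, thus had more reads per base than the first 3 in both genotypes. The Ser-Gly pairs of exon 3 lie in the part with the lowest density. The 3 WT wounds with the highest share at day 14, replicates e to g, also had the highest keratinocyte sums, 114823 to 166396 CPM, as the plot of the variable share shows. The part of these markers in the result was not tested.

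**Figure D5:**
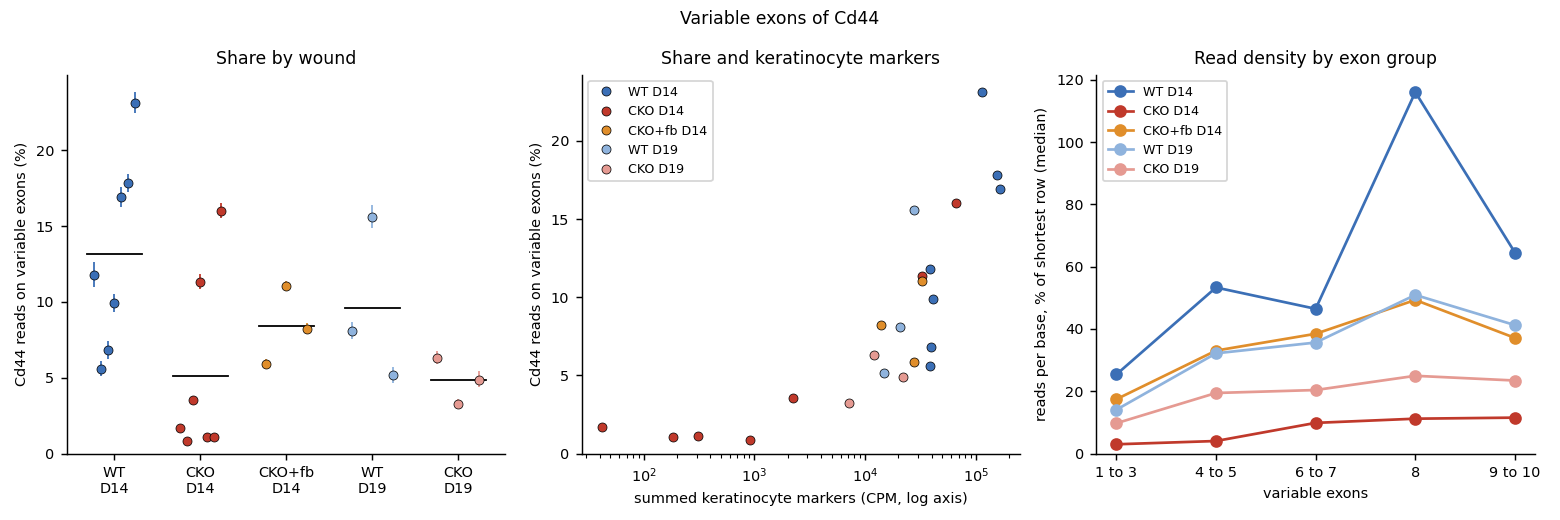
Left, percent of Cd44 reads on variable exons in each wound with 95% Wilson intervals; middle, the same percent against summed keratinocyte markers in CPM (log axis); right, median read density on 5 exon groups as percent of that on the shortest transcript. In Col5a1CKO wounds at day 14, the 2 wounds above 11% are those with the most keratinocyte marker RNA.

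Vcan (chr13:89794915-89882117, minus strand) encodes versican, a large proteoglycan with a hyaluronan-binding head and chondroitin sulfate chains on 2 alternatively spliced exons. The forms are known as V0 with both, V1 with the beta exon, V2 with the alpha exon and V3 with neither. The alpha exon, chr13:89842523-89845402, has 2880 bp and 7 in-frame Ser-Gly codon pairs. The beta exon, chr13:89827890-89833106, has 5217 bp and 21 pairs. To show the sites at which chains can be attached, a window of 150 bases is printed from each, with Ser-Gly codons in capitals, from chr13:89844990-89845139 and chr13:89832957-89833106 of NCBI37, minus strand.
Vcan alpha exon window: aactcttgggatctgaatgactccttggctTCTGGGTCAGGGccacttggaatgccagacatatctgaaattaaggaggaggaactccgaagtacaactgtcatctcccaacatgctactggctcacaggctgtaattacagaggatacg
Vcan beta exon window: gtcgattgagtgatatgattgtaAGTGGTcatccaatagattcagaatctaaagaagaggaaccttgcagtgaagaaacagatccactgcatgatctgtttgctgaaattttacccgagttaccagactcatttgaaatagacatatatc

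In the cilengitide experiment Vcan had 168, 158, 80.7 and 70.7 CPM in WT wounds with vehicle and 453, 409, 327 and 272 in Col5a1CKO wounds with vehicle. All mutant wounds were higher, with a rise of 3.03-fold (1.60 ± 0.34 SE, edgeR adjusted p = 0.00695) that held with each of the 8 wounds left out. With cilengitide the values were 135, 276, 250 and 207 CPM, between the vehicle groups and overlapping both. The difference was -0.76 ± 0.26 SE from mutant wounds with vehicle (adjusted p = 0.0667) and 0.87 ± 0.33 SE from WT (0.0930). Markers of fibroblasts, which are a main source of versican, had summed levels with vehicle of 9982 to 56332 CPM in WT wounds and 24094 to 114747 CPM in mutant wounds, and 3 of 8 were called higher. Their part in the result was not tested.

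At day 14 of the first experiment the library sets differed in Vcan. WT replicates a to d of the lower set had 18.8, 28.5, 36.8 and 25.9 RPKM, and e to g of the upper set 5.42, 2.96 and 1.95. Col5a1CKO replicates a to e of the lower set had 40.7, 54.5, 48.9, 36.5 and 43.8 RPKM, and f and g of the upper set 16.3 and 11.1. Within each set the mutant wounds were therefore higher, with the lowest mutant value of the lower set just under the highest WT value. The log2 fold change over all wounds was 1.04 ± 0.60 SE (edgeR adjusted p = 0.277). A fit with library set as covariate gave 1.17 with an adjusted p of 0.0101. At day 19 WT wounds had 15.0, 11.1 and 26.5 RPKM and Col5a1CKO wounds 34.1, 35.9 and 25.7 (0.91 ± 0.41 SE, adjusted p = 0.229).

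Wounds with WT fibroblasts had 9.70, 14.9 and 15.2 RPKM of Vcan. Over all wounds the difference from Col5a1CKO wounds without them was -1.46 ± 0.49 SE (edgeR adjusted p = 0.365), but within the upper set, where only 2 such wounds remain, the difference was 0.01. Against WT the log2 fold change of -0.27 ± 0.81 SE became 2.09 within the upper set with an adjusted p of 0.00541. Between days 14 and 19 in WT wounds the log2 fold change was 0.03 ± 0.84 SE over all wounds (adjusted p = 0.989), 2.50 with library set as covariate (0.00538) and 2.50 within the upper set (0.0179). The size of these Vcan differences, and the direction of those with WT fibroblasts, thus depended on which libraries were compared.

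The beta exon carried most of the spliced-in reads. Its read density over that on the V3 exons was 0.228 to 0.602 with a median of 0.454 in WT and 0.335 to 0.603 with a median of 0.418 in Col5a1CKO wounds at day 14. At day 19 it was 0.356, 0.410 and 0.533 in WT and 0.840, 0.744 and 0.621 in Col5a1CKO wounds, with no overlap. As the log2 ratio of the V1 to the V3 transcript the difference was 0.31, with an exact permutation p of 0.1, the smallest that 3 wounds against 3 allow, and 0.3 after adjustment over 9. The density on the alpha exon was 0.0093 to 0.0947 of that on the V3 exons over the 23 wounds.

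Tnfaip6 (chr2:51893529-51912206, plus strand) encodes TSG-6, which is secreted in response to inflammatory signals. With vehicle it had 23.4, 17.2, 33.3 and 14.1 CPM in WT and 42.0, 46.9, 68.5 and 92.6 in Col5a1CKO wounds. The groups did not overlap, and the rise was 2.81-fold (1.49 ± 0.34 SE, edgeR adjusted p = 0.00931), which held with each wound left out. With cilengitide it had 14.2, 31.5, 25.4 and 23.5 CPM. Every treated wound was below every mutant wound with vehicle, 2.67-fold lower (-1.42 ± 0.33 SE, edgeR adjusted p = 0.0200). The treated wounds lay within the range of WT (0.11 ± 0.31 SE, 0.811). The call for cilengitide was lost by a small margin without Col5a1CKO vehicle replicate 3 (0.0527) or cilengitide replicate 3 (0.0511). Leukocyte markers moved in the same direction, with 5 of 8 called lower with cilengitide and summed levels of 4476 to 8681 CPM against 4949 to 47945 with vehicle, and their part in the result was not tested.

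In the first experiment Tnfaip6 ranged from 2.49 to 38.0 RPKM with a median of 29.8 in WT and from 8.08 to 40.4 with a median of 24.4 in Col5a1CKO wounds at day 14. The groups overlapped (0.09 ± 0.46 SE, edgeR adjusted p = 0.926). At day 19 WT wounds had 15.1, 5.23 and 19.28 RPKM and Col5a1CKO wounds 22.5, 41.3 and 19.33. The groups were separated by a small margin (1.11 ± 0.57 SE, adjusted p = 0.272). Wounds with WT fibroblasts had 13.02, 14.4 and 18.0 RPKM, within the range of Col5a1CKO wounds without them (-0.75 ± 0.40 SE, adjusted p = 0.427).

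When groups were put in order of their mean, few neighbours were separate in range. In the time-course table Has1 in Col5a1CKO wounds at day 19 was separate from WT at day 19, and Hyal1 in wounds with fibroblasts from Col5a1CKO wounds at day 19. In the cilengitide table Has2 and Cd44 with cilengitide were separate from WT with vehicle, and Tnfaip6 in Col5a1CKO wounds with vehicle from those with cilengitide. All other neighbours overlapped. Shares of all genes with separate ranges were computed only between genotypes, at 16.4% higher and 18.4% lower at day 19. With vehicle they were 23.4% and 26.1%. For the other pairs no such share was computed, so their separations are not read as results about these genes. The groups of the Hyal1 pair differ in both day and treatment.

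The effect of genotype was not shown to differ between days 14 and 19 for any of the 8 genes. In the edgeR test of the interaction the largest log2 term was that of Tnfaip6, 1.002 ± 0.82 SE (unadjusted p = 0.237), and those of Has1 and Has2 were 0.81 ± 1.30 and 0.81 ± 0.82. Over 15954 genes, 0 passed an adjusted p of 0.05, with 939 at an unadjusted p under 0.05 and 45 by DESeq2.

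Of 39 other genes of the hyaluronan pathway, 32 could be tested for Col5a1CKO against WT with vehicle, and 11 were called higher and none lower, against 17.5% and 13.4% of all genes. In the same wounds 7 of 8 leukocyte, 3 of 8 fibroblast and 2 of 5 endothelial markers were called higher, and their part in the result was not tested. The median log2 fold change of the tested pathway genes was 1.01, against 0.02 for all genes. Degradation enzymes had 4 of 6 tested called, sugar supply 2 of 7, receptors 2 of 5, hyalectans and link proteins 2 of 4, heavy chains and partners 1 of 4 and versican-cleaving proteases none of 6. The 4 with the smallest adjusted p are named. Gnpnat1, an enzyme of the pathway to UDP-N-acetylglucosamine, was 8.09 to 13.6 CPM in WT and 23.2 to 33.2 in Col5a1CKO wounds (1.38 ± 0.19 SE, edgeR adjusted p = 0.00151). Bcan, the hyalectan brevican, was 0.0536 to 0.357 and 2.83 to 5.95 CPM (4.52 ± 0.69 SE, 0.00199). Gusb, the lysosomal beta-glucuronidase, was 22.8 to 50.3 and 107 to 145 CPM (1.70 ± 0.27 SE, 0.00233). Layn, the receptor layilin, was 1.89 to 4.60 and 11.1 to 17.4 CPM (2.07 ± 0.36 SE, 0.00313). None of these 4 overlapped between genotypes.

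With cilengitide 0 of 35 tested pathway genes were called higher and 2 lower, a share no larger than the 6.59% of all genes called lower. Layn fell to 6.08 to 7.77 CPM (-1.06 ± 0.19 SE, edgeR adjusted p = 0.0101) and Adamts4, a protease that cleaves versican, was 30.1 to 46.3 CPM against 34.7 to 133 with vehicle (-1.20 ± 0.37 SE, 0.0488). Against WT with vehicle, treated wounds had 2 of 31 called, both higher, Layn (1.04 ± 0.31 SE, 0.0464) and Bcan (3.62 ± 0.64 SE, 0.0193). There 5.15% of all genes were called higher and 3.43% lower. At day 14 of the first experiment 4 of 28 were called, all higher in Col5a1CKO wounds, with a median of 0.92 against -0.03, where 5.57% of all genes were called higher. There 4 of 8 leukocyte, 3 of 8 fibroblast and 4 of 5 endothelial markers were also called higher, and their part in the result was not tested. Cemip2, a transmembrane hyaluronidase, was 1.97 to 5.49 RPKM in WT and 6.87 to 18.4 in Col5a1CKO wounds (1.63 ± 0.28 SE, edgeR adjusted p = 0.00515). Gusb was 12.3 to 25.4 and 29.4 to 51.9 RPKM (1.21 ± 0.23 SE, 0.00693). Cemip, a secreted hyaluronan-degrading protein, was 2.37 to 8.46 and 8.23 to 41.4 RPKM (1.55 ± 0.37 SE, 0.0186), with the ranges just meeting. The last of the 4 was Adamts4 (1.59 ± 0.47 SE, 0.0410).

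Against WT, wounds with WT fibroblasts had 2 of 30 called, both higher, Cemip2 (1.43 ± 0.31 SE, edgeR adjusted p = 0.0207) and Gusb (1.25 ± 0.30 SE, 0.0300). There 3.77% of all genes were called higher and 2.06% lower. None of 32 was called at day 19 between genotypes and none of 34 with fibroblasts against Col5a1CKO wounds. Of all genes, 0.0198% were called higher and 0% lower in the first comparison, and 0% either way in the second. From day 14 to day 19, 1 of 29 was called in WT, Acan, which was 0 to 0.056 RPKM at day 14 and 0.324 to 0.789 at day 19, and 1 of 32 in Col5a1CKO wounds, Adamts4 (1.03 ± 0.26 SE, adjusted p = 0.0420). Both were higher at day 19, where 1.5% of all genes were called higher in WT and 1.87% in Col5a1CKO wounds. All libraries of day 19 and those with fibroblasts are of the upper library set, while the other day 14 groups hold both sets. The lists were chosen with results of these data known.

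For 7 of the 8 genes, Hyal2 being left out, the 3 genes with the most similar pattern among 13788 were found by the lower of 2 Pearson correlations of log2(CPM + 1), over the 23 wounds of the first table within groups and library sets and over the 12 wounds of the cilengitide experiment within groups. The closest was Bnc1, which encodes a zinc finger protein of basal keratinocytes, with Has3 (0.956 and 0.921), followed there by Ptprz1 and Pla2g4e. Cd44 was most like Gna13 (0.880 and 0.970), Rbms1 and Met, and Vcan most like Tbc1d8b (0.832 and 0.885), Rsu1 and Sdc2. For Hyal1 the 3 genes were Fam188a (0.839 and 0.862), Fam40a and Slc25a48. The values were lower for Has2, with Hn1l (0.767 and 0.797), Il24 and Hspa8, for Tnfaip6, with Trim12a (0.764 and 0.775), Trim12c and Ccl6, and for Has1, with Cxcr7 (0.725 and 0.762), Lrrn4cl and Ifi205. Wounds of 1 group share their cell makeup and handling, so these are descriptions of the wounds.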

How the data were processed

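Total RNA of punch biopsies from the wound center was sequenced in 35 libraries, grouped by their titles. The authors deposited raw counts, made per their methods with Hisat2 on NCBI37/mm9 and SeqMonk on exons of RefSeq genes; whether this covers the cilengitide libraries is not given in the sources used here. One deposited table holds counts for 29082 RefSeq transcripts, of which the one with most counts was kept for each symbol, and the other holds counts for each symbol. Rows naming no gene (30 and 1, at most 0.0694% and 0.0002% of a library) were left out.

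All genes were tested within each pair of groups with edgeR 4.0.16 in R 4.3.3 (TMM, quasi-likelihood test with robust set, filterByExpr at a minimum count of 10), with Benjamini-Hochberg adjustment over all genes tested. Levels are TMM-scaled counts by library size (CPM), and RPKM where divided by the length of the kept transcript in kilobases. Fold changes across the tables were not compared. Ratios within a wound (0.5 count added) entered exact permutation tests, 2-sided, by enumeration of all rearrangements in Python 3.11.15. Wilson intervals were made with scipy 1.17.1. Wilson intervals and floors of 3 counts cover counting error only. The test was tried on simulated data. Alternatives were DESeq2 1.42.0, other size factors, filters, thresholds and transcripts, the replicate letter as a block, all groups fitted together, library set as covariate or alone, and leaving out each replicate. The reads on extra exons over the shorter transcript were added after seeing the data.

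The 8 genes, the pathway and marker lists and the tests were chosen with earlier results of these data known. Named genes are the 8, Col5a1, up to 4 called pathway genes per comparison and direction by smallest adjusted p, and the 3 genes most like each of the 8, of which those for Hyal2 are not reported here. Exon sequences are from the NCBI37 genome with reading frames of GENCODE M1. Skeletal muscle and adipocyte markers had none called in any comparison.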

Additional observations from a re-analysis of the deposited data

Results flagged for a closer look

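Among Col5a1CKO wounds at day 14, the Hyal1 level of replicate g, 11.9 RPKM, stood apart from the other 6 wounds. Its gap to the nearest of them was 0.693 of the range of the group, above Dixon's critical value for 7 samples. Such tests were made on 48 groups of values, of which chance would mark about 1 in 20. The same wound had the highest keratinocyte marker sum of its group, 66120 CPM, and the part of these markers in the value was not tested.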

How the results depend on the processing

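Of 592 fold changes of the 8 genes under other settings, leaving out single wounds apart, 527 kept their direction and side of the threshold. Another 15 kept direction and newly passed, 6 no longer passed and 44 turned direction, none of the latter for a gene called in the main test. The block and single-set fits among these used fewer wounds. Vcan turned and was then called with fibroblasts against WT, at 2.11 with library set as covariate (edgeR adjusted p = 0.00247) and 2.09 in the upper set (0.00541). It also did so in Col5a1CKO by day with the covariate (1.20, 0.0483). The limit of these data is the split of the day 14 libraries in 2 sets, which is uneven between groups, and the 3 or 4 wounds of the smaller groups. Comparisons of day 14 with day 19, or with wounds that received fibroblasts, set libraries of both sets against libraries of the upper set alone. The cause of each change given here was not tested.

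The number of the 8 genes called moved as follows. For Col5a1CKO against WT at day 14 it was 1 with the replicate block and 1 with the library set as a covariate, both times Vcan. At day 19 it was 2 with DESeq2 and 2 with an unadjusted p. With fibroblasts against Col5a1CKO it was 1 with an unadjusted p and 3 with the block, and against WT 4 with the block, 1 with the covariate and 2 in the upper set. The block fits with fibroblasts and by day kept only replicates a to c of day 14. These are all of the lower set and were compared with upper-set libraries alone, so group and library set could not be told apart there. For WT by day it was 1 with the block, the covariate and the upper set each, and for Col5a1CKO by day 0 in the upper set. With the covariate it stayed at 1 there, but Has1 was no longer called (adjusted p = 0.0575) and Vcan was (0.0483). With vehicle it was 3 at a minimum of 3-fold, and 4, without Has1, by library size only, with all genes and with all groups in one fit. For cilengitide against vehicle it was 0 at 3-fold, and against WT 2 with no fold minimum and 0 with all groups in one fit. With 1 wound left out these numbers were 0 to 1 for genotype at day 14 and at day 19, 0 to 1 for Col5a1CKO by day, 3 to 6 with vehicle, 0 to 2 for cilengitide against vehicle and 0 to 1 against WT.

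The replicate letters a to g recur in the groups, but the labels do not say that they pair wounds. After removal of group means, wounds with the same letter correlated across genes with a mean of 0.185 at day 14 (-0.459 to 0.573), -0.389 at day 19, 0.107 and 0.237 for fibroblasts against Col5a1CKO and WT, 0.207 for WT by day and -0.163 for Col5a1CKO by day. At day 14, 3 of 7 pairs of wounds correlated best with their own letter. The letters were therefore not taken as pairs. With the letter as a block the log2 fold changes that turned were 0.27 for Hyal2 between genotypes at day 14, -0.25 for Has2 and -0.23 for Cd44 with fibroblasts against Col5a1CKO, 0.68 for Hyal1 with fibroblasts against WT, 0.39, 0.79 and -0.76 for Has3, Hyal1 and Vcan in WT by day, and 4.76 and -0.26 for Has3 and Tnfaip6 in Col5a1CKO by day. Except for the genotype comparison, these fits set lower-set replicates a to c of day 14 against upper-set libraries. They therefore cannot separate the letter from the library set. The ratio of Has2 to Has3 at day 14 kept its difference of 4.61 with the block but had an exact p of 0.0625. No paired analysis was possible for the cilengitide experiment because its labels give no shared replicate numbers.

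With the library set as a covariate the fold changes that turned were 0.36 for Hyal2 between genotypes at day 14, -0.10 and -0.24 for Has1 and Hyal1 with fibroblasts against Col5a1CKO, -0.68, 2.11 and 0.56 for Hyal2, Vcan and Tnfaip6 with fibroblasts against WT, -0.90 and 0.35 for Hyal2 and Tnfaip6 in WT by day, and 0.43, -0.85, -0.38 and 1.20 for Has2, Hyal1, Hyal2 and Vcan in Col5a1CKO by day. In the upper set alone they were -0.047, -0.16 and 0.0081 for Has1, Hyal1 and Vcan with fibroblasts against Col5a1CKO, -0.70, 2.09 and 0.54 for Hyal2, Vcan and Tnfaip6 against WT, -0.90 and 0.36 for Hyal2 and Tnfaip6 in WT by day, and 0.50, -0.76, -0.31 and 1.26 for Has2, Hyal1, Hyal2 and Vcan in Col5a1CKO by day. In the lower set alone they were 0.99 for Hyal2 and -0.19 for Tnfaip6 between genotypes. The ratio of Has2 to Has3 between genotypes was 4.47 in the lower and 3.62 in the upper set, neither past the adjusted threshold. In the upper set the log2 transcript ratios with fibroblasts against Col5a1CKO were -0.0068 for Cd44 and -0.0024 for Vcan V0 to V1, both turned.

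Of values near 0, Cd44 with fibroblasts against Col5a1CKO was -0.014 with all transcripts summed, and Hyal1 against WT 0.084 by library size. In WT by day, Has3 was 0.19 by library size, Hyal2 was -0.054 with all groups in one fit, and Hyal1 was 0.041 with DESeq2, 0.041 with other size factors, 0.40 by library size, 0.0011 with all genes and 0.017 with transcripts summed.

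Leaving out 1 wound turned 43 of 672 fold changes. Between genotypes Tnfaip6 at day 14 ranged from -0.12 to 0.24 and Has3 at day 19 from -1.31 to 0.33. With fibroblasts against Col5a1CKO, Has1 ranged from -0.16 to 0.24, Has2 from -0.58 to 0.66 and Cd44 from -0.29 to 0.16, and against WT, Hyal1 from -0.22 to 0.16 and Vcan from -0.49 to 0.038. In WT by day Has3 ranged from -1.48 to 0.15, Hyal1 from -0.18 to 0.21, Hyal2 from -0.16 to 0.40 and Vcan from -0.35 to 0.40. In Col5a1CKO by day Has3 ranged from -0.62 to 0.58, Hyal1 from -0.093 to 0.72 and Tnfaip6 from -0.28 to 0.34. With cilengitide against WT, Tnfaip6 ranged from -0.055 to 0.39. The Vcan V1 to V3 ratio between genotypes at day 14 ranged from -0.042 to 0.031. The ratio of Has2 to Has3 ranged from -5.76 to -3.95 with fibroblasts, from 4.77 to 6.41 between genotypes with vehicle and from -5.26 to -3.61 with cilengitide.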
